A study of Arabidopsis thaliana with 16 samples.

Results

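The 10 alpha-expansin genes of Arabidopsis thaliana were followed across genotype and temperature: EXPA1, EXPA3, EXPA4, EXPA5, EXPA6, EXPA8, EXPA9, EXPA10, EXPA11 and EXPA15. They are part of the alpha-expansin family and make up 10 of the 33602 genes in the deposited count table. They were listed by gene ID with earlier results of these data known, so counts among them are descriptions. A further 16 alpha-expansins and 9 beta-expansin or expansin-like genes are in the same table. RNA was sequenced from whole seedlings of the accession Col-0, aged 6 days and raised on 1/2 MS medium in continuous white light. The 4 genotypes were WT, mrg1 mrg2 (a double mutant), pif4 (a single mutant) and mrg1 mrg2 pif4 (a triple mutant), each held at 22 °C or moved to 28 °C for 3 h, with 2 libraries in each of the 8 groups. The labels name no alleles, so what each mutation removes cannot be stated. Nothing in them tells if paired libraries are separate cultures, so p-values speak to a spread between libraries alone. That spread was 1 estimate per gene over all 8 groups, drawn toward that of other genes.

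Expansins are small secreted proteins of the plant cell wall. They loosen the contacts between cellulose and matrix polysaccharides without cutting them, and act best in an acidic wall, where plasma membrane proton pumps of the AHA family lower the pH. This is the basis of acid growth. PIF4 is a bHLH transcription factor that drives growth of the seedling stem in warmth and binds DNA at G-boxes (CACGTG) and at the related PBE box (CACATG). MRG1 and MRG2 are chromatin proteins that bind histone H3 methylated at lysine residues of active genes. EXPA8 is often measured as a readout of PIF-dependent growth, EXPA1 is known from guard cells and root growth, EXPA10 from growth of leaves and EXPA5 from brassinosteroid-dependent growth.

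The genes lie on chromosomes 1, 2, 3 and 5 of the RefSeq TAIR10.1 assembly. EXPA8 (AT2G40610) occupies positions 16948791 to 16950705 on the minus strand of chromosome 2, EXPA15 (AT2G03090) positions 916806 to 918671 on its minus strand, EXPA4 (AT2G39700) positions 16543832 to 16545746 on its minus strand, EXPA1 (AT1G69530) positions 26141726 to 26143538 on the plus strand of chromosome 1, and EXPA10 (AT1G26770) positions 9259432 to 9261313 on its plus strand. No annotated gene overlapped any of the 10, and 0% of the 50-base words of their exons occurred elsewhere in the genome. An exact read of this length or longer from within an exon thus has 1 place to go. Reads with mismatches or across exon junctions were not examined. The 250 bases upstream of 3 annotated starts are shown: EXPA8 because it is the gene whose warm response differed by genotype, EXPA1 and EXPA10 because they hold the palindrome CACATGTG, which contains the PBE box on both strands, and fell in warmth. The sequences are RefSeq TAIR10.1, at chr2:16950706-16950955 on the minus strand for EXPA8, chr1:26141476-26141725 on the plus strand for EXPA1 and chr1:9259182-9259431 on the plus strand for EXPA10. Capitals mark each base of a G-box or PBE box on either strand, and EXPA8 has none.
EXPA8: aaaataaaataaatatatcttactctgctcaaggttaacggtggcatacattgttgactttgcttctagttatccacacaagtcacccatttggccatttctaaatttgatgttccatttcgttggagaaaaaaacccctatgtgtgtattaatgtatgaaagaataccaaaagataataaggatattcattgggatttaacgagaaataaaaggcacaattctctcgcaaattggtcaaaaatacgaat
EXPA1: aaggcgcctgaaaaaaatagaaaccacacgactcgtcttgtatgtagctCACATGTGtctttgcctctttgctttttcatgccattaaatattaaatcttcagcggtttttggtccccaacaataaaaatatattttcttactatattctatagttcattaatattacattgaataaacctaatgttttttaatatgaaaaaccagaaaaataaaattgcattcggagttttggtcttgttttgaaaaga
EXPA10: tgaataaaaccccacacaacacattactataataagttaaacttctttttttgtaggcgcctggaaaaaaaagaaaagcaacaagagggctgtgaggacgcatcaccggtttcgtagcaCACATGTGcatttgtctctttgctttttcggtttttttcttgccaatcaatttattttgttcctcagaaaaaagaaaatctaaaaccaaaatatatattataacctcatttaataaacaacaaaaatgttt

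The letters CACATG, searched on both strands, occurred in 3 of the 10 upstream windows, those of EXPA1, EXPA10 and EXPA11, and in 11.1% of the 27443 windows of the same length in the annotation. In EXPA1 the palindrome begins 201 bases before the start and in EXPA10 131 bases before it, and because it is palindromic it counts as a pair of overlapping matches. CACGTG occurred in 0 of the 10 and in 6.49% of all windows, which says only that these letters are not in these 250 bases. The auxin response element TGTCTC was in 3 of 10, those of EXPA5, EXPA6 and EXPA10, against 10.9% of all windows, and the heat shock pattern GAANNTTC was in 1 of 10, that of EXPA15, against 9.55%. The letters CGTGTG were in 2 of 10, those of EXPA1 and EXPA6, against 5.37%. No other motif was searched. EXPA1 and EXPA10 also share a run of 14 identical bases, ctctttgctttttc, which starts 186 bases upstream of EXPA1 and 116 bases upstream of EXPA10. Like EXPA1 and EXPA10, the genes EXPA4, EXPA5 and EXPA15 fell in warmth in all 4 genotypes, but their windows hold neither CACATG nor CACGTG. A link between these letters and the warm response was not tested. A match of letters is a description of the sequence and does not show binding.

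Library totals ran from 7186066 to 11363353 counts, so 3 counts correspond to 0.253 to 0.432 CPM (counts relative to the library total after TMM scaling). All 10 genes passed the filter on low counts, and each had between 86 and 1970 counts in every library. MRG1 had 41 to 64 counts per library in the groups labelled mrg1 mrg2 and mrg1 mrg2 pif4 at 22 °C against 168 to 219 in the other groups, and MRG2 had 2 to 8 against 69 to 99. At 22 °C PIF4 transcripts stood at 25.1 to 41.4 CPM in the libraries labelled pif4 or mrg1 mrg2 pif4. The other libraries at 22 °C had 29.5 to 41.5 CPM, so the ranges overlapped. Against WT at 22 °C, PIF4 gave no call in pif4 and was called higher in mrg1 mrg2 and in the triple mutant. At 28 °C PIF4 stood at 77.5 to 84.8 CPM in the libraries so labelled against 86.2 to 109 CPM in the others. Neither difference from WT at 28 °C passed (edgeR adjusted p = 0.319 in pif4 and 0.444 in the triple mutant). The triple mutant was lower in PIF4 than mrg1 mrg2 at 28 °C (log2 difference -0.33 ± 0.08, adjusted p = 0.00828). Because PIF4 reads remained at these levels, they do not settle the pif4 labels as the MRG1 and MRG2 reads do the mrg1 mrg2 labels, and every direction for pif4 or the triple mutant below refers to libraries so labelled.

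The label of whole seedlings was matched by marker genes. Per library, 3 shoot epidermis markers summed to 625 to 738 CPM and 8 root markers to 57 to 112 CPM. The 4 stomatal lineage markers summed to 42.7 to 57.9 CPM. Of 3 shoot meristem genes, CLV3 and WUS were at or near 0 and STM had group means of 2.26 to 4.48 CPM. Compared per length of exon, EXPA1 was the most abundant of the 10, with a mean of 101.8 RPKM (CPM per kilobase of exon) over the 8 groups, followed by EXPA6 at 51.3 RPKM, EXPA4 at 45.5 RPKM and EXPA8 at 39.0 RPKM. EXPA9 was the least abundant at 10.95 RPKM. EXPA15 had the widest range, its highest group mean being 3.17 times its lowest, and EXPA6 the narrowest, at 1.26 times. In EXPA15 all 8 libraries at 22 °C lay above all 8 at 28 °C.

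Warmth lowered more of these genes than it raised. In WT, 6 of the 10 fell after 3 h at 28 °C (EXPA1, EXPA4, EXPA5, EXPA10, EXPA11 and EXPA15), 2 rose (EXPA6 and EXPA8) and 2 gave no call (EXPA3 and EXPA9). Calls were made with edgeR's quasi-likelihood test with Benjamini-Hochberg adjustment over all 20075 genes tested and a threshold of 0.05. Of all genes tested, 13.7% were called lower and 13.3% higher in this comparison. The median log2 change was -0.474 over the 10 genes and 0.0111 over all. The widest called changes in each direction among the 10 were those of EXPA15 and EXPA8: EXPA15 fell to 0.383 of its level at 22 °C and EXPA8 rose 1.59-fold. EXPA3, at 59.5 and 61.5 CPM at 22 °C and 59.4 and 61.4 CPM at 28 °C, overlapped completely between temperatures (log2 change -0.00 ± 0.09 SE, adjusted p = 0.987). Whole seedlings were sampled, so fewer cells that express a gene and less RNA per cell cannot be told apart. The 8 root markers summed to 112 CPM in both WT libraries at 22 °C and to 62.4 and 64.6 CPM at 28 °C. Of the 7 root markers tested, 3 were called lower: IRT1, PIN2 and CASP1. IRT1, an iron transporter, took up most of the drop, from 30.67 to 1.44 CPM on average, and the other 7 markers summed to 81.2 CPM in both cool libraries and to 61.4 and 62.7 CPM in the warm ones. The 6 root hair markers, which include the alpha-expansins EXPA7 and EXPA18, summed to 104 CPM against 53.3 and 54.1 CPM, with 5 of 6 called lower. None of these markers was at 0 in a whole group, and their part in the changes of the expansin genes was not tested.

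**Figure D1:**
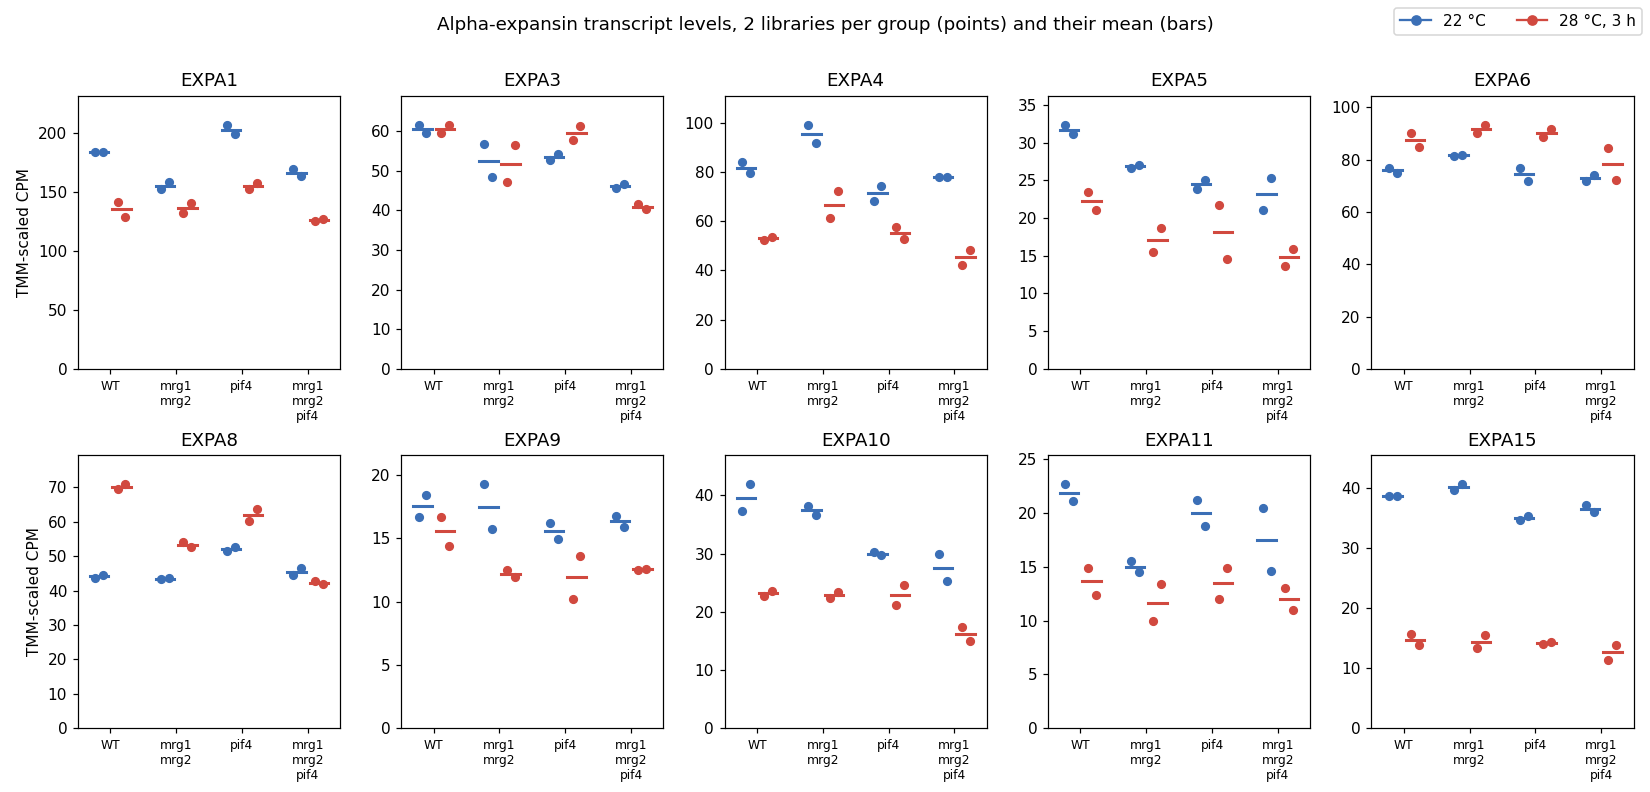
TMM-scaled CPM of each of the 10 genes (vertical axes, one scale per gene, starting at 0) in the 4 genotypes, with blue points for the 2 libraries at 22 °C, red points for the 2 libraries at 28 °C and a bar at their mean. EXPA15 is lower at 28 °C in every genotype, and EXPA8 is higher at 28 °C in WT (69.5 and 70.9 CPM against 43.7 and 44.6 CPM) but not in the triple mutant.

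EXPA8 was the 1 gene of the 10 whose warm response was called different from WT. In WT it stood at 43.7 and 44.6 CPM at 22 °C and at 69.5 and 70.9 CPM at 28 °C. In mrg1 mrg2 it stood at 43.4 and 43.6 CPM, then 52.6 and 54.0 CPM. In pif4 it stood at 51.7 and 52.6 CPM, then 60.1 and 63.7 CPM. The warm libraries lay above the cool ones in these 3 genotypes, by the most in WT. In the triple mutant the order turned, with 44.5 and 46.5 CPM at 22 °C and 41.8 and 42.7 CPM at 28 °C. On the log2 scale EXPA8 rose by 0.67 ± 0.08 (SE) in WT (adjusted p = 1.13e-08), by 0.30 ± 0.08 in mrg1 mrg2 (adjusted p = 0.00384) and by 0.25 ± 0.08 in pif4 (adjusted p = 0.0165), and its change in the triple mutant was -0.11 ± 0.08 (adjusted p = 0.358). The rises in WT and mrg1 mrg2 held when each library was left out in turn. The rise in pif4 did not pass without pif4 replicate 1 at 22 °C (adjusted p = 0.0849), pif4 replicate 2 at 22 °C (0.0606) or pif4 replicate 2 at 28 °C (0.178), or with DESeq2 (0.0831). Shoot markers were set beside EXPA8 in the 4 genotypes. Of 4 stomatal lineage markers, SPCH and TMM rose in warm WT (0.53 ± 0.20, adjusted p = 0.0469, and 0.38 ± 0.12, adjusted p = 0.0166) and none was called in the mutants, the median change of the 4 being 0.33 in WT, 0.09 in mrg1 mrg2, -0.01 in pif4 and -0.27 in the triple mutant. Their summed level was 42.7 CPM in both WT libraries at 22 °C and 53.3 and 56.5 CPM at 28 °C, 52.7 to 52.9 CPM, then 50.6 to 54.9 CPM, in mrg1 mrg2, 55.6 to 57.6 CPM, then 55 to 57.9 CPM, in pif4, and 54.6 to 56.7 CPM, then 48.9 to 51.1 CPM, in the triple mutant, with no marker at 0 in a group. Of 3 shoot epidermis markers, ATML1 and PDF1 rose in warm WT (0.18 ± 0.06, adjusted p = 0.0313, and 0.39 ± 0.06, adjusted p = 1.63e-06). In warm mrg1 mrg2 PDF1 fell (-0.16 ± 0.06, adjusted p = 0.0339) and the other 2 gave no call. None of the 3 was called in pif4 or the triple mutant. The median change of the 3 was 0.18 in WT, 0.01 in mrg1 mrg2, 0.06 in pif4 and -0.09 in the triple mutant. Their summed level was 625 to 627 CPM, then 709 to 733 CPM, in WT, 681 to 691 CPM, then 646 to 676 CPM, in mrg1 mrg2, 723 to 727 CPM, then 729 to 738 CPM, in pif4 and 675 to 686 CPM, then 644 to 652 CPM, in the triple mutant. The part of these markers in the EXPA8 values was not tested.

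The difference of the EXPA8 warm response from that of WT was itself tested as an interaction of genotype and temperature. It was -0.77 ± 0.11 on the log2 scale in the triple mutant (adjusted p = 7.11e-06), a call that held without any 1 of the 16 libraries and with DESeq2. It was -0.42 ± 0.11 in pif4 (adjusted p = 0.0185) and -0.37 ± 0.11 in mrg1 mrg2 (adjusted p = 0.0406), so EXPA8 passed in all 3 interactions. In all 3 at once, 0.941% of all tested genes were called lower. Of all genes tested, 3.47% were called lower for the triple mutant, 1.76% for pif4 and 2.44% for mrg1 mrg2. No other of the 10 genes passed in any of them, although EXPA1 in mrg1 mrg2 and EXPA4 and EXPA10 in pif4 had an unadjusted p under 0.05 (0.00551, 0.0401 and 0.0228). The 3 interactions share the WT libraries. The single and double mutant interactions were close to the threshold. The pif4 call was lost without WT replicate 1 at 22 °C (adjusted p = 0.0597), pif4 replicate 2 at 22 °C (0.0764), WT replicate 2 at 28 °C (0.0636) or pif4 replicate 1 at 28 °C (0.0993), and with DESeq2 (0.0776). The mrg1 mrg2 call was lost without either WT library at 22 °C (0.124 and 0.098), either mrg1 mrg2 library at 22 °C (0.106 and 0.107), either WT library at 28 °C (0.08 and 0.108), either mrg1 mrg2 library at 28 °C (0.0704 and 0.114) or replicate 1 of the triple mutant at 28 °C (0.0502), with DESeq2 (0.18), without the filter on low counts (0.0703) and with a fit to the 4 groups compared (0.0617). In the same tests SPCH and TMM were lower in the triple mutant interaction (-0.86 ± 0.26, adjusted p = 0.0406, and -0.59 ± 0.17, adjusted p = 0.0268), with a median of -0.73 over the 4 stomatal lineage markers. Of the 3 shoot epidermis markers, PDF1 was lower in all 3 interactions. It was -0.51 ± 0.08 in the triple mutant (adjusted p = 4.12e-05), -0.52 ± 0.08 in pif4 (4.63e-05) and -0.55 ± 0.08 in mrg1 mrg2 (2.14e-05). The other 2, ATML1 and FDH, gave no call in any of them. The median over the 3 markers was -0.16 in the triple mutant, -0.12 in pif4 and -0.15 in mrg1 mrg2. Root hair markers went the other way from EXPA8. Of 6, 2 were called higher in the triple mutant interaction, 4 in pif4 and 3 in mrg1 mrg2, and 0 lower. Their medians were 0.90, 0.96 and 1 in that order. Of 7 root markers tested, 1 was called higher in the triple mutant, 1 in pif4 and 0 in mrg1 mrg2. Of all 20075 genes, 1171, 825 and 965 were called in either direction. The pif4 values use warm libraries in which 3 seed storage and oleosin markers summed to 68.9 and 71.3 CPM, against at most 6.49 CPM in every other library; all 3 rose in the pif4 warm response and 2 were higher in its interaction. The part of these markers in the EXPA8 values was not tested. Over all alternatives tried the pif4 value ranged from -0.48 to -0.38 and the mrg1 mrg2 value from -0.39 to -0.36.

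**Figure D2:**
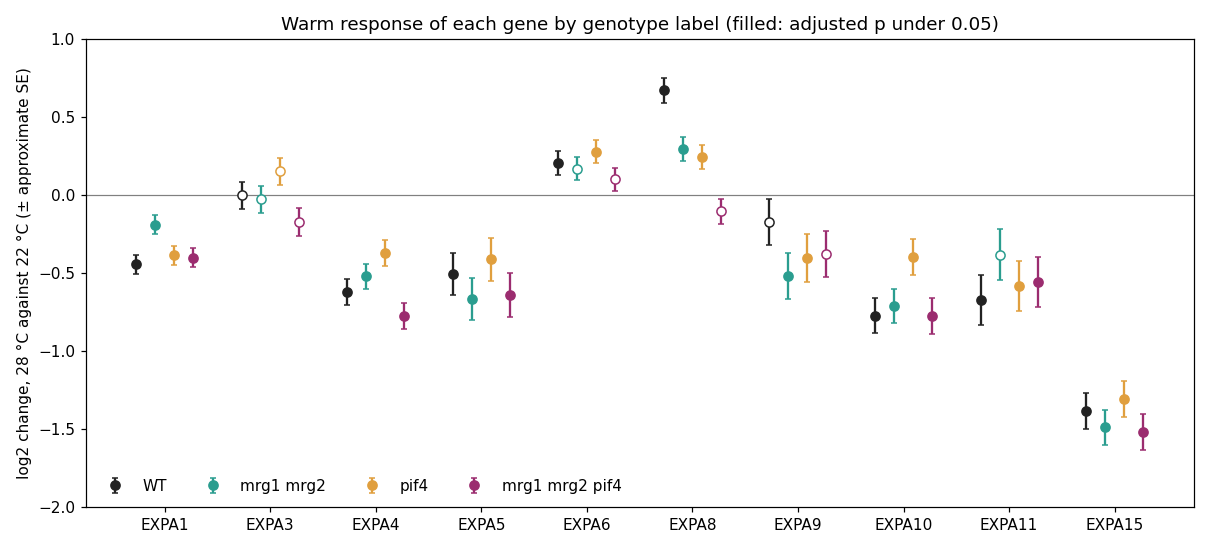
Log2 change from 22 °C to 28 °C (vertical axis) of each gene in WT (black), mrg1 mrg2 (green), pif4 (orange) and mrg1 mrg2 pif4 (purple); bars are the approximate SE, and filled points passed an adjusted p of 0.05. EXPA8 runs from 0.67 in WT to -0.11 in the triple mutant, while the 4 values of EXPA15 lie between -1.52 and -1.30.

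In all, 5 genes fell in warmth in all 4 genotypes: EXPA1, EXPA4, EXPA5, EXPA10 and EXPA15, that is 5 of 10, where 5.16% of all genes tested fell in all 4. Background shares of genes called lower were 14.1% in mrg1 mrg2, 12.4% in pif4 and 14.3% in the triple mutant, and the counts of fallen members there were 6, 7 and 6 of 10. EXPA15 showed the steepest fall of the 10 genes in every genotype. It stood at 38.7 and 38.8 CPM in WT at 22 °C and at 13.8 and 15.7 CPM at 28 °C. In mrg1 mrg2 it went from 39.8 and 40.7 CPM to 13.3 and 15.5 CPM. In pif4 it went from 34.8 and 35.3 CPM to 14.0 and 14.5 CPM. In the triple mutant it went from 36.1 and 37.2 CPM to 11.4 and 14.0 CPM, so the warm libraries of every genotype lay below all cool ones. Its log2 change was -1.38 ± 0.12 in WT (adjusted p = 2.74e-12), -1.49 ± 0.11 in mrg1 mrg2 (1.48e-13), -1.30 ± 0.12 in pif4 (1.91e-11) and -1.52 ± 0.11 in the triple mutant (1.83e-13), and the 4 calls held without any 1 library.

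EXPA4 stood at 79.5 and 83.8 CPM in WT at 22 °C and at 52.5 and 53.6 CPM at 28 °C. The cool and warm libraries did not overlap in any genotype, and its log2 change ran from -0.37 ± 0.08 in pif4 (adjusted p = 0.000863) to -0.78 ± 0.08 in the triple mutant (adjusted p = 1.81e-09). EXPA10 stood at 37.2 and 41.9 CPM in WT at 22 °C and at 22.8 and 23.6 CPM at 28 °C, a log2 change of -0.77 ± 0.11 (adjusted p = 7.17e-07). The fall was -0.71 ± 0.11 in mrg1 mrg2 (adjusted p = 2.2e-06), -0.77 ± 0.11 in the triple mutant (adjusted p = 1.77e-06) and -0.40 ± 0.11 in pif4 (adjusted p = 0.00735), where EXPA10 was already lower at 22 °C. The pif4 call was lost without pif4 replicate 1 at 28 °C (adjusted p = 0.162). The difference between the pif4 and WT falls of EXPA10 was 0.38 ± 0.16 and did not pass (adjusted p = 0.203).

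EXPA1, the most abundant of the genes, stood at 183.7 and 184.0 CPM in WT at 22 °C and at 129.1 and 141.3 CPM at 28 °C. It fell by 0.44 ± 0.06 on the log2 scale in WT (adjusted p = 3.22e-07) and by 0.19 ± 0.06 in mrg1 mrg2 (adjusted p = 0.0163), where it was lower than in WT before warming, at 152.1 and 158.1 CPM. The call in mrg1 mrg2 was lost without mrg1 mrg2 replicate 2 at 22 °C (adjusted p = 0.134) or replicate 1 at 28 °C (0.169). The difference between the WT and mrg1 mrg2 falls did not pass (0.25 ± 0.09, adjusted p = 0.0863). EXPA5 went from 31.1 and 32.3 CPM to 21.0 and 23.5 CPM in WT, with log2 changes from -0.66 in mrg1 mrg2 (adjusted p = 0.000203) to -0.41 in pif4 (adjusted p = 0.0244). Its WT call was lost without WT replicate 2 at 28 °C (0.0538). Its pif4 call was lost without pif4 replicate 1 or 2 at 22 °C (0.0585 and 0.137) or pif4 replicate 2 at 28 °C (0.397), and with DESeq2 (0.0724).

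Of the other 4 genes, EXPA6, EXPA9 and EXPA11 were called in some genotypes and EXPA3 in none. EXPA11 fell in WT (log2 change -0.67 ± 0.16, adjusted p = 0.00139), in pif4 (-0.58, 0.00573) and in the triple mutant (-0.56, 0.00788), and its change in mrg1 mrg2, where it was low at 22 °C, was -0.38 (0.081). The pif4 call was lost without pif4 replicate 1 at 22 °C (0.0716) or replicate 1 at 28 °C (0.145). The triple mutant call was lost without its replicate 1 at 22 °C (0.299) or replicate 2 at 28 °C (0.132), and the mrg1 mrg2 value passed without mrg1 mrg2 replicate 2 at 28 °C (0.0267). EXPA9 fell in mrg1 mrg2 (-0.52 ± 0.15, adjusted p = 0.00627) and in pif4 (-0.41 ± 0.15, 0.049), with -0.38 in the triple mutant at the edge of the threshold (0.0503) and -0.17 in WT (0.423). The mrg1 mrg2 call was lost without mrg1 mrg2 replicate 1 at 22 °C (0.166). The pif4 call was lost without either pif4 library at 22 °C (0.208 and 0.0864), pif4 replicate 1 at 28 °C (0.544), mrg1 mrg2 replicate 2 at 28 °C (0.0515) or triple mutant replicate 2 at 28 °C (0.0527), with DESeq2 (0.146), without the filter on low counts (0.0539) and with a fit to the groups compared (0.0648). EXPA9 in the triple mutant passed with size factors in place of TMM (0.0469), with the replicate number as a block (0.0454), without the ribosomal RNA gene (0.0495) and with a fit to the groups compared (0.0438). It also passed on omission of either WT library at 22 °C (0.0491 and 0.0495) or at 28 °C (0.0444 and 0.0488), either mrg1 mrg2 library at 22 °C (0.0487 and 0.048), mrg1 mrg2 replicate 1 at 28 °C (0.0476) or either pif4 library at 28 °C (0.0411 and 0.0402).

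EXPA6 moved the other way from its closest relative in the set. It stood at 74.7 and 76.9 CPM in WT at 22 °C and at 84.6 and 90.1 CPM at 28 °C, a rise of 0.20 ± 0.07 on the log2 scale (adjusted p = 0.037). The call was lost without WT replicate 1 or 2 at 22 °C (0.0837 and 0.187) or WT replicate 1 at 28 °C (0.246), with DESeq2 (0.11) and without the filter on low counts (0.0546). In pif4 it rose by 0.28 ± 0.07 (adjusted p = 0.00441), a call lost without pif4 replicate 2 at 22 °C (0.0836) or at 28 °C (0.0627). Its changes in mrg1 mrg2 and the triple mutant were 0.17 (0.0862) and 0.10 (0.342). Background shares of genes called higher were 12.8% in mrg1 mrg2, 13.2% in pif4 and 12.9% in the triple mutant, and 1, 2 and 0 of the 10 were called higher there. In the triple mutant 0 of the 10 also had a rise at an unadjusted p under 0.05, and DESeq2 called 0. The coding sequences of EXPA6 and EXPA4 were 76.6% identical, the highest of the 45 pairs, with 56.7% for EXPA1 and EXPA11 as the lowest.

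Before warming, 3 of the 10 genes differed from WT in mrg1 mrg2, 2 in pif4 and 3 in the triple mutant. In mrg1 mrg2 at 22 °C, EXPA11 (14.5 and 15.5 CPM against 21.1 and 22.6 CPM in WT) fell by 0.54 ± 0.15 on the log2 scale (adjusted p = 0.00746), EXPA1 fell by 0.24 ± 0.06 (adjusted p = 0.00203) and EXPA4 rose by 0.23 ± 0.08 (adjusted p = 0.0359). These were 3 of 10, where 24.5% of all tested genes were called. The EXPA11 call was lost without WT replicate 1 (0.0695) or mrg1 mrg2 replicate 2 (0.0708). The EXPA4 call was lost without WT replicate 1 or 2 (0.0605 and 0.228) or mrg1 mrg2 replicate 1 (0.271) and with DESeq2 (0.114). Leaving out WT replicate 1 left 1 of the 3 calls. EXPA3, at -0.20 (0.0853), passed without mrg1 mrg2 replicate 1 (0.0302). In pif4 at 22 °C, EXPA10 (29.7 and 30.2 CPM against 37.2 and 41.9 CPM) fell by 0.40 ± 0.11 (adjusted p = 0.00793) and EXPA8 (51.7 and 52.6 CPM against 43.7 and 44.6 CPM) rose by 0.24 ± 0.08 (adjusted p = 0.0419). These were 2 of 10, where 10.8% of all genes were called. The EXPA10 call was lost without WT replicate 2 (0.176) or pif4 replicate 2 (0.0819). The EXPA8 call was lost without any of the 4 libraries compared (0.166 and 0.124 for WT, 0.109 and 0.193 for pif4), with DESeq2 (0.173), without the filter (0.0754) and with a fit to the groups compared (0.0519). EXPA5, at -0.37 (0.0572), passed without pif4 replicate 1 or 2 at 28 °C (0.03 and 0.0313), with a fit to the groups compared (0.0123) and with the replicate number as a block (0.0315).

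In the triple mutant at 22 °C, 3 of 10 were lower than in WT, where 7.55% of all tested genes were. EXPA10 stood at 25.2 and 29.9 CPM against 37.2 and 41.9 CPM in WT (log2 difference -0.52 ± 0.11, adjusted p = 0.000407). EXPA3 stood at 45.6 and 46.7 CPM against 59.5 and 61.5 CPM (-0.39 ± 0.09, adjusted p = 0.00129). EXPA5 stood at 21.0 and 25.2 CPM against 31.1 and 32.3 CPM (-0.45 ± 0.13, adjusted p = 0.0122). In none of these 3 did the libraries overlap, but the EXPA5 call was lost without WT replicate 1 (0.092) or triple mutant replicate 1 (0.197) and with DESeq2 (0.051). EXPA11, at -0.32 (0.158), passed without triple mutant replicate 1 (0.0336). The comparisons with WT share the WT libraries of the same temperature. In the same WT libraries at 22 °C the 6 root hair markers summed to 104 CPM, against 35.4 to 66.4 CPM in the mutants, and the 4 of them that are not expansins to 75.6 and 77.4 CPM against 26.2 to 50 CPM; their part in these differences was not tested.

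**Figure D3:**
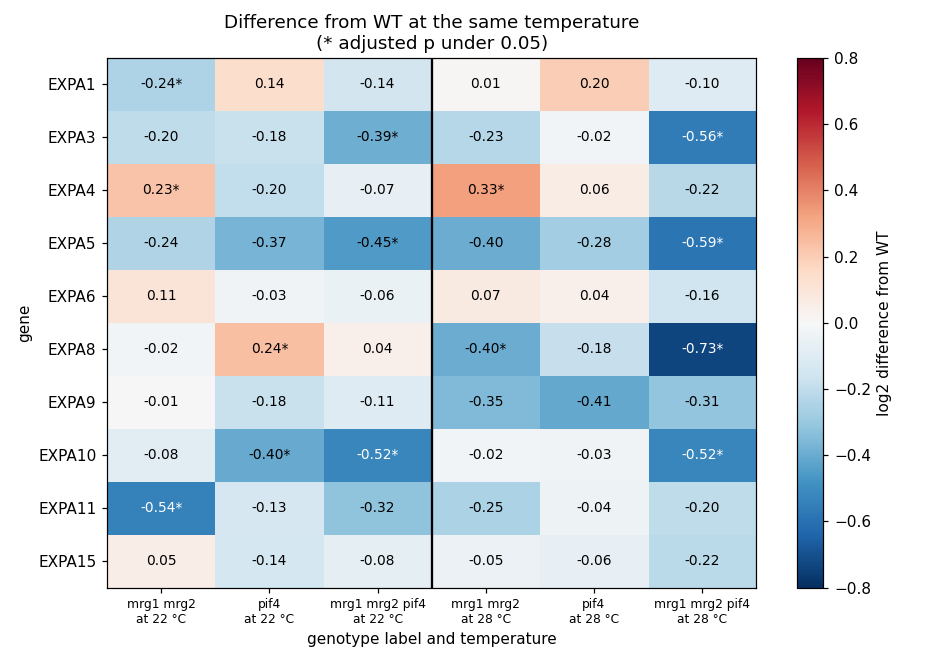
Log2 difference of each mutant from WT at the same temperature (columns) for each gene (rows), with an asterisk where the adjusted p was under 0.05. The largest values are EXPA8 at -0.73 and EXPA5 at -0.59, both in the triple mutant at 28 °C.

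At 28 °C the triple mutant had the most genes below WT. EXPA8 (-0.73 ± 0.08, adjusted p = 7.69e-09), EXPA3 (-0.56 ± 0.09, adjusted p = 1.61e-05), EXPA10 (-0.52 ± 0.12, adjusted p = 0.00247) and EXPA5 (-0.59 ± 0.14, adjusted p = 0.00427) were lower. These were 4 of 10, where 6.55% of all tested genes were lower. EXPA8 stood at 41.8 and 42.7 CPM in the triple mutant, 0.602 of the WT level, and EXPA3 at 40.3 and 41.6 CPM against 59.4 and 61.4 CPM in WT. EXPA3 gave no call for warmth in any genotype, and its libraries in the triple mutant lay below those of every other genotype at both temperatures. The EXPA8 and EXPA3 calls held without any 1 library. The EXPA10 call was lost without triple mutant replicate 2 (0.0875) and the EXPA5 call without WT replicate 1 (0.0776) or triple mutant replicate 1 (0.065). EXPA6, at -0.16, passed without triple mutant replicate 1 (0.0435).

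In mrg1 mrg2 at 28 °C, EXPA8 was lower than in WT (52.6 and 54.0 CPM against 69.5 and 70.9 CPM, log2 difference -0.40 ± 0.08, adjusted p = 0.000314) and EXPA4 higher (61.4 and 72.0 CPM against 52.5 and 53.6 CPM, 0.33 ± 0.08, adjusted p = 0.00626). These were 2 of 10, where 14.1% of all genes were called. The EXPA8 call held without any 1 library, and the EXPA4 call was lost without WT replicate 1 (0.0543) or mrg1 mrg2 replicate 2 (0.182). EXPA3 (-0.23, 0.0772) passed without mrg1 mrg2 replicate 2 (0.0196), and EXPA5 (-0.40, 0.0524) without mrg1 mrg2 replicate 2 (0.0396) or pif4 replicate 1 or 2 (0.029 and 0.0284), with size factors in place of TMM (0.0487) and with the replicate number as a block (0.0355). In pif4 at 28 °C, edgeR called 0 of the 10 against WT and DESeq2 also called 0, where edgeR called 1.59% of all genes. At the same time 3 of the 10 had an unadjusted p under 0.05. EXPA8 stood at 60.1 and 63.7 CPM there, below both WT libraries, with a log2 difference of -0.18 ± 0.08 (adjusted p = 0.327), and EXPA1 at 152.4 and 157.9 CPM, above both, with 0.20 ± 0.06 (adjusted p = 0.107). EXPA9 had the widest difference of the 10, -0.41 ± 0.16 (adjusted p = 0.256). It stood at 10.2 and 13.6 CPM in pif4 against 14.4 and 16.7 CPM in WT. Seed storage and oleosin markers summed to 68.9 and 71.3 CPM in the 2 warm pif4 libraries and to at most 6.49 CPM in every other library; their part in these values was not tested.

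Set against the double and single mutants at 28 °C, the triple mutant was lower in EXPA3, EXPA4, EXPA8 and EXPA10 than both mrg1 mrg2 and pif4. Against pif4, 5 of 10 were lower where 6.03% of all tested genes were. EXPA8 differed by -0.55 ± 0.08 on the log2 scale (adjusted p = 3.24e-06), EXPA3 by -0.54 ± 0.09 (3.4e-05), EXPA1 by -0.30 ± 0.06 (0.000632), EXPA10 by -0.49 ± 0.12 (0.00474) and EXPA4 by -0.28 ± 0.09 (0.0306). The EXPA10 call was lost without pif4 replicate 2 (0.117) or triple mutant replicate 2 (0.135). The EXPA4 call was lost without pif4 replicate 1 (0.283) or triple mutant replicate 1 (0.341), with DESeq2 (0.108) and with a fit to the groups compared (0.0538). EXPA5 passed without pif4 replicate 2 (0.0265) and EXPA6 without triple mutant replicate 1 (0.0218). In the comparison with pif4 all 3 seed markers were lower in the triple mutant (median log2 difference -3.39), as were 2 of the 3 shoot epidermis markers, PDF1 (-0.20 ± 0.06, adjusted p = 0.0193) and FDH (-0.25 ± 0.05, adjusted p = 0.000939). The summed seed markers stood at 3.49 to 5.35 CPM against 68.9 to 71.3 CPM in pif4, and the shoot epidermis markers at 644 to 652 CPM against 729 to 738 CPM. Against mrg1 mrg2, 5 of 10 were lower where 5.28% of all tested genes were. EXPA4 differed by -0.55 ± 0.08 (9.9e-06), EXPA8 by -0.34 ± 0.08 (0.00299), EXPA10 by -0.50 ± 0.12 (0.003), EXPA3 by -0.34 ± 0.09 (0.00923) and EXPA6 by -0.23 ± 0.07 (0.0395). Without triple mutant replicate 2 the EXPA4 call alone of these 5 was kept, the others reaching 0.0522 for EXPA8, 0.117 for EXPA10, 0.101 for EXPA3 and 0.537 for EXPA6. The EXPA3 call was lost as well without mrg1 mrg2 replicate 2 (0.26), and the EXPA6 call without mrg1 mrg2 replicate 1 or 2 (0.0779 and 0.186), with DESeq2 (0.0971), without the filter (0.0551) and with a fit to the groups compared (0.0788). In that comparison 1 of 3 seed markers and 2 of 6 root hair markers were higher in the triple mutant, and 0 of 3 shoot epidermis markers were called. Of 7 root markers tested, 1 was higher and 1 lower in the triple mutant, against mrg1 mrg2 and likewise against pif4. Of all 20075 genes tested, edgeR called 1998 in either direction against mrg1 mrg2 and 1891 against pif4. The part of these markers in the expansin differences was not tested.

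Whether the triple mutant equals the sum of the mrg1 mrg2 and pif4 differences from WT at 28 °C was tested on the log2 scale. EXPA4 lay 0.61 ± 0.12 below that sum, written as a departure of -0.61 (adjusted p = 0.00117). It was higher than WT in mrg1 mrg2 (61.4 and 72.0 CPM), overlapping WT in pif4 (52.7 and 57.6 CPM) and lowest in the triple mutant (42.3 and 48.5 CPM). That call held without any 1 library and with DESeq2. EXPA1 departed by -0.31 ± 0.09 (adjusted p = 0.0313), making 2 of 10 where 2.56% of all tested genes lay below the sum. Its call was lost without WT replicate 2 (0.198), mrg1 mrg2 replicate 2 (0.133), either pif4 library (0.053 and 0.124) or either triple mutant library (0.0971 and 0.085), with DESeq2 (0.0642), without the filter (0.0507) and with a fit to the groups compared (0.0824). EXPA6, at -0.27 (0.163), passed without triple mutant replicate 1 (0.0484). EXPA8 departed by -0.15 ± 0.11 (adjusted p = 0.551). With 2 libraries per group, a sum of the separate differences was thus not distinguished from its value in the triple mutant.

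The 10 genes together carried 391.7 ± 1.98 RPKM (SD, n = 2) in WT at 22 °C and 326.8 ± 10.2 RPKM at 28 °C. The triple mutant had the lowest sum at each temperature, 349.9 ± 4.53 RPKM at 22 °C and 263.4 ± 2.55 RPKM at 28 °C. The double mutant went from 372.1 ± 6.00 to 313.6 ± 17.7 RPKM and pif4 from 381.6 ± 3.19 to 329.7 ± 6.43 RPKM. EXPA1 made up 26.7% to 34.3% of the sum in every group. In WT the share of EXPA8 went from 8.5% at 22 °C to 16.2% at 28 °C while that of EXPA15 went from 6.9% to 3.15%. In the triple mutant the share of EXPA8 went from 9.81% to 12.1% while its own level went from 44.5 and 46.5 CPM to 41.8 and 42.7 CPM, and the sum of the 10 was lower at 28 °C.

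**Figure D4:**
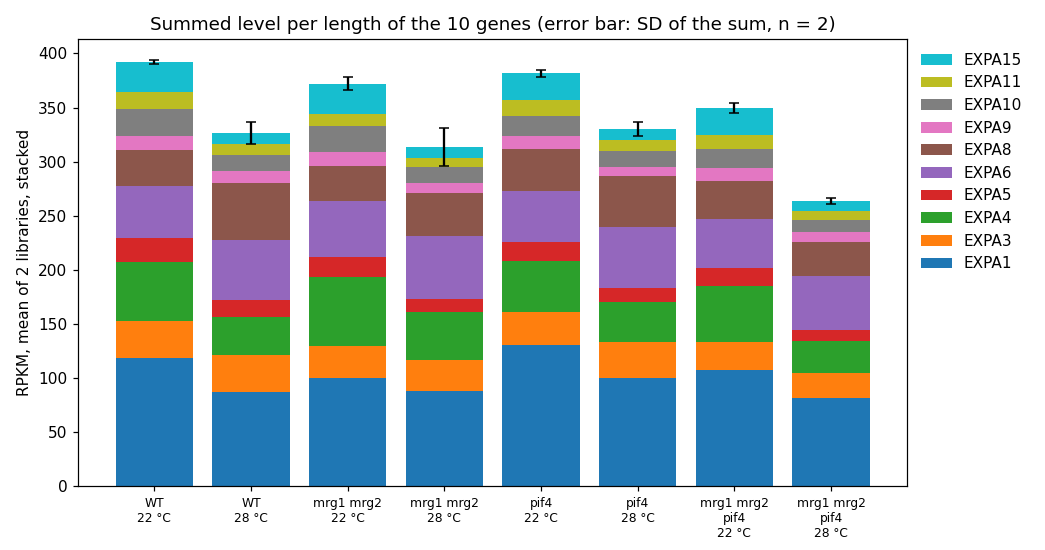
RPKM of the 10 genes stacked (vertical axis, mean of 2 libraries) in the 8 groups; error bars are the SD of the summed RPKM (n = 2). The sum is lower at 28 °C in every genotype and lowest, at 263.4 RPKM, in the triple mutant at 28 °C, with EXPA1 the largest layer throughout.

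Across the 8 group means of log2 CPM, EXPA5 and EXPA10 were the members most alike (Pearson r = 0.946) and EXPA6 and EXPA11 the least (r = -0.736). These are descriptions over 8 points that share libraries, temperature and genotypes. Among all other tested genes, the most like EXPA8 were AT5G14210 (r = 0.964), AT3G19780 (0.961) and AT2G36030 (0.951). The most like EXPA15 was GH9C2, which is annotated by its name as a glycosyl hydrolase of family 9 (r = 0.998), followed by ATMS1 (0.996), a methionine synthase, and SAHH2 (0.995), an S-adenosylhomocysteine hydrolase. The most like EXPA10 was AT5G48660 (0.996) and the most like EXPA4 was UGT78D1 (0.992), a flavonol glycosyltransferase.

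Of the 16 further alpha-expansins, 8 had enough counts to test, and in WT 4 of them fell in warmth and 1 rose, where 13.7% of all tested genes fell and 13.3% rose. The counts of fallen and risen genes among the 8 were 0 and 1 in mrg1 mrg2, 1 and 1 in pif4 and 0 and 1 in the triple mutant. Of all tested genes, 14.1% fell and 12.8% rose in mrg1 mrg2, and 12.4% and 13.2% in pif4. In the triple mutant 14.3% fell and 12.9% rose. The median log2 change of the 8 was -0.49 in WT, 0.08 in mrg1 mrg2, -0.03 in pif4 and 0.01 in the triple mutant. In WT EXPA7 and EXPA18, which act in root hairs, fell by 0.80 ± 0.21 (adjusted p = 0.00352) and 0.95 ± 0.23 (adjusted p = 0.00134). Both belong to the list of 6 root hair markers, whose median change in WT was -0.87. In each mutant 0 of the 6 were called lower, and 1 was called higher in pif4. The medians of the 6 were 0.096 in mrg1 mrg2, 0.058 in pif4 and -0.031 in the triple mutant. At 22 °C EXPA7 averaged 11.7 CPM in WT and 5.06 to 8.36 CPM in the mutants. EXPA18 averaged 15.5 CPM in WT and 4.76 to 8.01 CPM in the mutants. In WT the other 4 markers of that list summed to 75.6 and 77.4 CPM at 22 °C and to 38.1 and 39.8 CPM at 28 °C. Their part in the EXPA7 and EXPA18 values was not tested. EXPA14 was also lower in WT (-0.65 ± 0.18, 0.00644). EXPA17 was called lower (0.0117) from 9 and 18 counts at 22 °C to 2 and 3 counts at 28 °C, which is at or under the floor of 3 counts, so no fold is given. The 1 that rose was EXPA16, by 1.04 ± 0.38 (0.0374), which is named outside the rule for named genes and was chosen after its values were seen. EXPA7 rose in warm pif4 by 0.79 ± 0.21 (adjusted p = 0.00369), and its interaction with temperature in pif4 was 1.58 ± 0.29 (adjusted p = 0.00057). Among the 9 beta-expansin and expansin-like genes, of which 5 were tested, EXPB3 fell in warmth in all 4 genotypes, from 89.6 ± 4.41 CPM (SD, n = 2) to 38.5 ± 0.77 CPM in WT and from 74.3 ± 2.99 to 21.6 ± 0.37 CPM in the triple mutant. Its fall was deeper than in WT in mrg1 mrg2 (interaction -0.47 ± 0.12, adjusted p = 0.0113) and in the triple mutant (-0.56 ± 0.12, adjusted p = 0.00156). EXLA1 rose in all 4 genotypes, from 7.36 ± 0.51 to 21.6 ± 1.37 CPM in WT (log2 change 1.55 ± 0.17, adjusted p = 2.67e-09).

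Of the 11 plasma membrane proton pump genes, which acidify the wall in which expansins act, 9 were tested. In WT 2 fell in warmth and 1 rose, and in each mutant AHA2 and AHA11 fell, beside 12.4% to 14.3% of all tested genes called lower in the 4 genotypes. AHA2, a main pump of seedlings, fell by 0.18 ± 0.05 on the log2 scale in WT (adjusted p = 0.0025), by 0.40 ± 0.05 in mrg1 mrg2 (adjusted p = 6.65e-09), by 0.16 ± 0.05 in pif4 (adjusted p = 0.0101) and by 0.20 ± 0.05 in the triple mutant (adjusted p = 0.000726). AHA7 fell in WT by 1.04 ± 0.14 (adjusted p = 2.95e-07), the most of the pumps called there, and AHA3 rose by 0.27 ± 0.06 (adjusted p = 0.000729). Against WT at 28 °C the triple mutant was lower in 4 pumps and higher in 1, where 6.55% of all tested genes were lower and 5.29% higher, with AHA11 at -0.70 ± 0.07 (adjusted p = 2.84e-10), AHA2 at -0.25 ± 0.05 (adjusted p = 0.000166) and AHA7 at 0.48 ± 0.15 (adjusted p = 0.026).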

How the data were processed

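The authors deposited raw counts for 33602 genes in 16 libraries, with no normalization. Per the submitters' processing notes, cutadapt, HISAT2, SAMtools and featureCounts were used with the build TAIR10; the sources used here give no versions, annotation or strand setting. All 16 sample columns were matched to labels by name.

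From these counts, genes passing filterByExpr (minimum count 10, total 15; 20075 genes) were fitted in R 4.3.3 with edgeR 4.0.16 (TMM, quasi-likelihood F-test, two-sided, 8 groups of 2, residual df 8), with p-values adjusted by Benjamini-Hochberg over all genes in each of 16 comparisons and called under 0.05. The spread of each gene was shared by all 8 groups and drawn toward that of other genes (prior df 29.1). Between the 2 libraries of a group, the mean chi-square per gene was 1.77 to 4.03 at 22 °C and 6.72 to 8.61 at 28 °C. Its median was 0.733 to 0.77 and 0.902 to 1.09. Calls at 28 °C thus use a spread pooled with the cool groups. The SE is the log2 change divided by the square root of F. CPM used TMM-scaled totals, and RPKM divided CPM by RefSeq TAIR10.1 exon length. Alternatives were size factors (RLE), no filter, the replicate number as a block, no ribosomal RNA gene, a fit to the compared groups, DESeq2 1.42.0, and leaving out each library; the script was tested on simulated data. Same-numbered samples did not meet the criterion for pairing, a correlation of deviations above 0.1 in every pair (-0.0151 to 0.0595 over 28 pairs).

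All 10 members are named, and up to 4 called genes by smallest p from each companion list and comparison, plus EXPA16. The members and lists were chosen with earlier results of these data known, so their counts are descriptions. Floors cover counting error only.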

Additional observations from a re-analysis of the deposited data

Results flagged for a closer look

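The warm response of EXPA8 was called different from that of WT in each mutant by an edgeR test of the difference itself. DESeq2 called the difference in the triple mutant alone. The interaction was -0.77 on the log2 scale in mrg1 mrg2 pif4, -0.42 in pif4 and -0.37 in mrg1 mrg2, and the 3 tests share the WT libraries. The triple mutant value kept its call under all 22 alternatives tried, and the other values did not. In pif4 the EXPA8 difference from WT was 0.24 at 22 °C and -0.18 at 28 °C, where it was not called. Whether the response of the triple mutant differs from that of mrg1 mrg2 or of pif4 was not tested. With 2 libraries a group, no library was tested as standing apart.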

How the results depend on the processing

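The 160 values of the 10 genes were recomputed under 22 alternatives; none of the 3520 values reversed a call, 97 lost one and 30 gained one, and 31 of the 59 calls held throughout. With DESeq2 the count of called members went from 2 to 1 for pif4 against WT at 22 °C, from 1 to 0 for the mrg1 mrg2 and the pif4 interactions, from 2 to 1 for additivity, from 9 to 6 for the warm response in pif4, from 8 to 7 for that in WT, from 3 to 2 for mrg1 mrg2 and for the triple mutant against WT at 22 °C, and from 5 to 4 for the triple mutant against mrg1 mrg2 and against pif4. Without the filter on low counts it went from 2 to 1 for pif4 against WT at 22 °C, from 1 to 0 for the mrg1 mrg2 interaction, from 2 to 1 for additivity, from 8 to 7 and 9 to 8 for the warm responses in WT and pif4, and from 5 to 4 for the triple mutant against mrg1 mrg2. With only the compared groups fitted it went from 1 to 0 for the mrg1 mrg2 interaction, from 2 to 1 for additivity, from 9 to 8 for the warm response in pif4, from 6 to 7 for that in the triple mutant, and from 5 to 4 for the triple mutant against each other mutant. Size factors (RLE) gave 7 for the warm response in the triple mutant and 3 for mrg1 mrg2 against WT at 28 °C, and leaving out the ribosomal RNA gene gave 7 for the former. With the replicate number as a block, counts were 3 for pif4 against WT at 22 °C, where 2 were called without it, 3 for mrg1 mrg2 against WT at 28 °C, where 2 were, and 7 for the warm response of the triple mutant, where 6 were; the gene gained was EXPA5, EXPA5 and EXPA9 in turn. No pair of same-numbered libraries correlated above 0.1, but the ribosomal RNA gene took a larger share of counts in replicate 2 in all 8 groups (by the least in pif4 at 22 °C, 7.08% and 7.22%, and up to 4.88% and 8.5% in the warm triple mutant), and the TMM factor was lower in replicate 2 in all 4 warm groups. Whether a number marks shared handling was not tested.

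Leaving out 1 library, the count of called members ranged from 7 to 8 for the warm response in WT, 6 to 8 in mrg1 mrg2, 5 to 9 in pif4 (lowest without either pif4 library at 22 °C) and 5 to 7 in the triple mutant. It ranged from 1 to 3 for mrg1 mrg2 (lowest without WT replicate 1), 0 to 3 for pif4 (lowest without WT or pif4 replicate 2) and 2 to 3 for the triple mutant against WT at 22 °C. At 28 °C it ranged from 1 to 3 for mrg1 mrg2 (lowest without WT replicate 1), stayed at 0 for pif4 and ranged from 3 to 4 for the triple mutant, with 1 to 5 for the triple mutant against mrg1 mrg2 (lowest without triple mutant replicate 2) and 4 to 5 against pif4. The interaction counts ranged from 0 to 1 in mrg1 mrg2 and in pif4 and stayed at 1 in the triple mutant, and the additivity count ranged from 1 to 2. Where an arm is left with 1 library, that library is assumed to vary like the others.

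DESeq2 called fewer genes over the whole table: 1371 against 2178 for pif4 and 1972 against 3093 for the triple mutant at 22 °C; 1743 against 2830 for mrg1 mrg2 and 1389 against 2377 for the triple mutant at 28 °C; 1230 against 1998 and 1154 against 1891 for the triple mutant against mrg1 mrg2 and pif4; 583 against 965, 493 against 825 and 750 against 1171 for the interactions of mrg1 mrg2, pif4 and the triple mutant; and 477 against 747 for additivity. The cause was not tested.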

Other observations

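Of the AHA proton pumps, AHA7 was the one whose warm response differed from WT in each mutant, the opposite way from EXPA8. It fell in WT, and its interaction was 0.91 ± 0.20 (SE) on the log2 scale in mrg1 mrg2 (edgeR adjusted p = 0.00347), 1.39 ± 0.20 in pif4 (adjusted p = 1.09e-05) and 1.00 ± 0.20 in the triple mutant (adjusted p = 0.000699), comparisons that share the WT libraries. The 6 root hair markers, EXPA7 and EXPA18 among them, summed to 104 CPM in WT at 22 °C and to between 35.4 and 70.5 CPM in the other groups. Their part in the AHA7 values was not tested.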
